A study of Canis lupus familiaris with 31 samples.

Results

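Heat shock proteins and DNAJ chaperones were examined in RNA-seq of whole blood from 31 Miniature Schnauzers, 13 with high serum triglycerides (HTG cases) and 18 controls, sequenced as 1 library per dog. The members were the rows of the deposited table of counts whose gene symbol starts with HSPA, HSPB, HSPD, HSPE, HSPH, HSP90 or DNAJ, which gave 65 genes of 32704 rows. The HTG cases were 8 males and 5 females, and the controls were 10 males and 8 females. The dogs were pets and older adults, the males castrated and nearly all females spayed, and dogs on drugs that alter lipids had not been enrolled. Fasting serum triglycerides assigned them to their group, and cases were screened for endocrine and kidney disease. All 18 controls also tested negative for diabetes, and most of them for hypothyroidism and hypercortisolism. Diet was recorded but not set, no gene was targeted and no agent was given, so cases and controls may differ in more than triglycerides.

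Molecular chaperones bind unfolded proteins and help them to fold, to cross membranes or to be degraded. HSP70 proteins do so in cycles of ATP hydrolysis, which DNAJ proteins (also called HSP40 or J-domain proteins) start and which nucleotide exchange factors such as the HSP110 proteins end, while HSP90 acts on clients that are nearly folded and small heat shock proteins hold unfolded clients without ATP. Separate sets serve the cytosol, the endoplasmic reticulum and the mitochondrion, and heat shock factors or the unfolded protein response induce many of them under stress.

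The labels give whole blood as the tissue, so every value is a mixture of circulating cells, in which fewer cells of a type and less RNA per cell cannot be told apart. Between 14524659 and 41533599 counts per dog fell on genes, and 13918 genes passed edgeR's filter on low counts. The dogs fell on either side of a gap in the counts of small non-coding RNAs, with 10 dogs (5 cases and 5 controls) on the high side and 21 (8 cases and 13 controls) on the low side. The mean log2 level of 366 small RNA genes was at least 1.66 on the high side and at most 1.40 on the low side. The methods describe a pilot batch of the same composition without naming its dogs, so results are also given within each side. Marker genes of platelets and of reticulocytes, the immature red cells in circulation, were higher on average in cases for 11 of 11 tested genes each, with mean scores 0.66 and 0.69 higher on the log2 scale. The platelet list holds genes that the study picked from these dogs. Reticulocyte scores overlapped widely between groups, from -1.17 to 2.33 in cases and from -1.59 to 2.75 in controls, and case_01 and control_03 were highest. T cell markers had higher averages in cases for 0 of 9 genes (score difference -0.21), neutrophil markers for 6 of 8 (0.57), monocyte markers for 5 of 7 (0.18) and B cell markers for 7 of 8 (0.23). The markers PF4, S100A9, FPR1 and CD14 were not analysed here.

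Of the 65 members, 50 passed the filter and 15 did not. No read pair was counted in any dog on 7 of them, the small heat shock genes HSPB7 and HSPB9, DNAJB8, DNAJC5B, DNAJC5G, DNAJC22 and DNAJC28. A count of 0 allows up to 3 counts per dog, or 0.0692 to 0.392 CPM (counts scaled to the normalized library size) depending on the dog, and this covers counting error only. The other 8 had few counts, from 1 count in all dogs together for HSPB2 to 231 for DNAJB13, and they were HSPA12A, HSPA12B, HSPB2, HSPB8, DNAJB5, DNAJB7, DNAJB13 and DNAJC12. HSPD1 and HSPE1, the mitochondrial chaperonin and its cofactor, and HSP90AB1, the constitutive cytosolic HSP90, were not analysed here, and neither were HSPA1A and DNAJA2. By role, the 50 tested members were 7 HSP70 and HSP110 genes, cytosolic HSP90AA1, 10 genes of the endoplasmic reticulum, 6 of the mitochondrion, 3 small heat shock genes, 20 other J-domain genes and 3 genes (HSPB11, HSPBP1 and HSPBAP1) that share a prefix but are not heat shock proteins.

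The first comparison asked whether chaperone transcripts in blood differed between HTG cases and controls. The smallest P-values belonged to the cytosolic chaperones HSPH1 and HSPA8, with lower medians in cases, and to HSPB6 and DNAJC4, with higher medians. In all, 0 of 50 members passed an adjusted P-value of 0.05 in edgeR's quasi-likelihood test, where 0.0359% of all genes tested did (5 of 13918). With P-values not adjusted, 4 members were under 0.05, 2 with higher and 2 with lower values in cases, beside 9.81% of all genes. DESeq2 and limma-voom also called 0 members and put 5 each under an unadjusted 0.05, beside 10.5% and 11.2% of all genes. The log2 fold changes of cases over controls were below 0 for 33 of the 50 members, beside 54.5% of all genes, and their median was -0.04, beside -0.02 over all genes. Groups overlapped for all 50 members, as they did for every gene tested (0% did not).

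**Figure D1:**
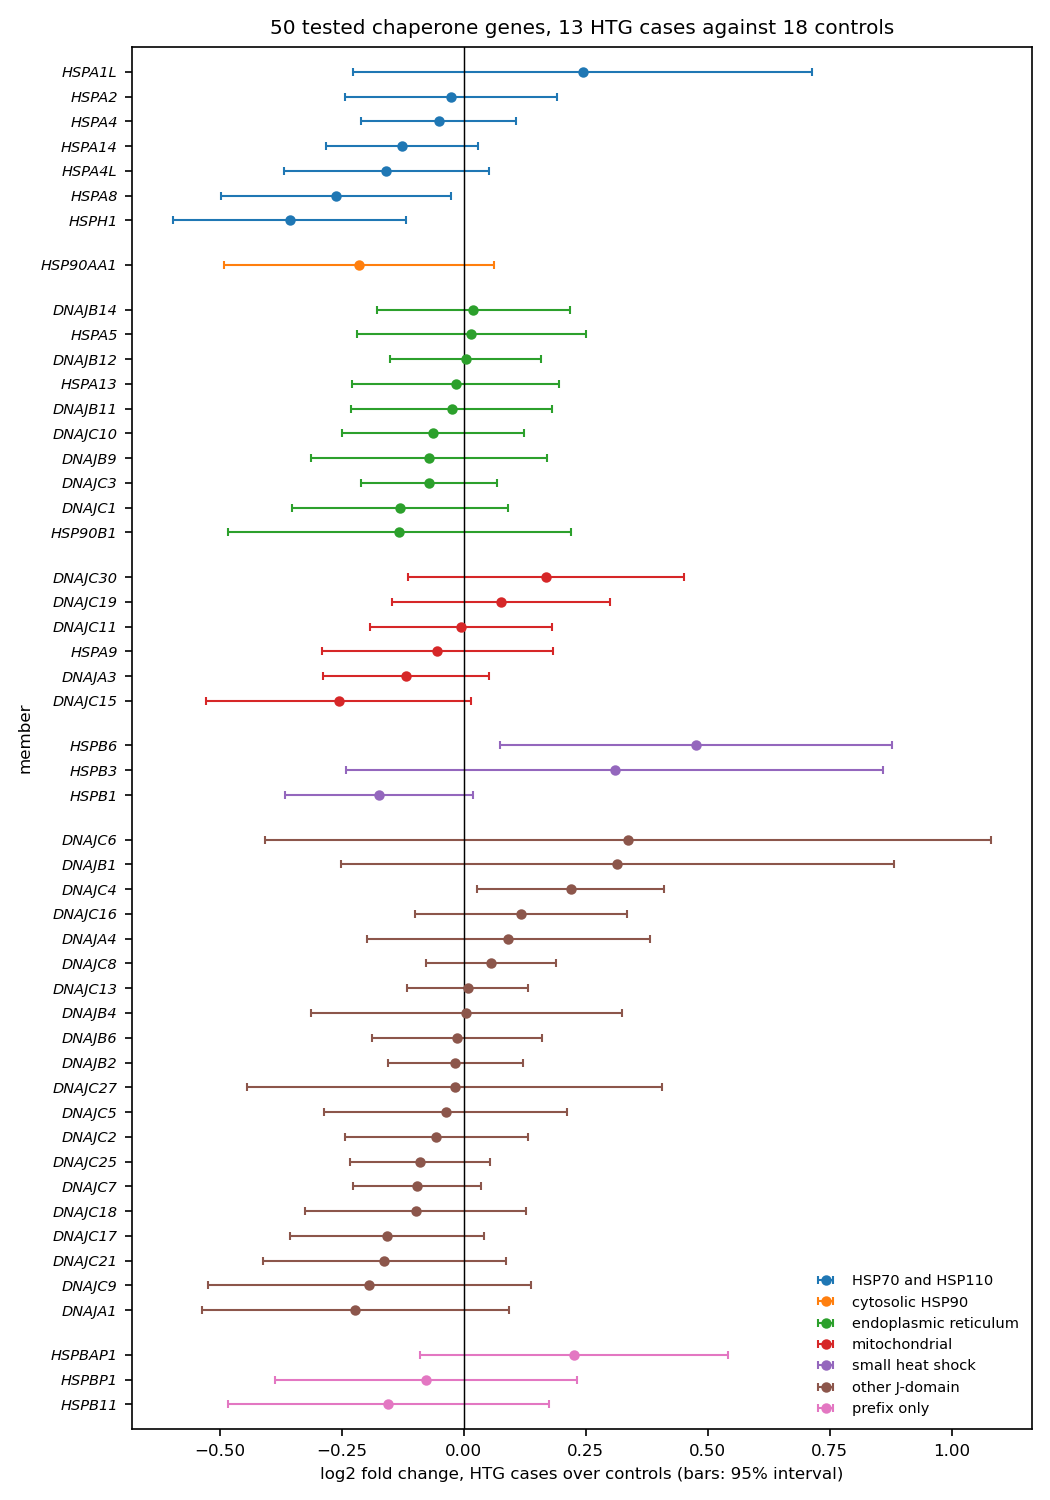
Log2 fold change of HTG cases (n = 13) over controls (n = 18) for the 50 tested members, ordered by role; points are edgeR estimates and bars are 95% intervals. The intervals of HSPH1 and HSPA8 lie below 0 and those of HSPB6 and DNAJC4 above it, and no member had an adjusted P-value under 0.275.

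Among the HSP70 and HSP110 genes, 6 of 7 had log2 fold changes below 0, with a median of -0.13. HSPH1, the HSP110 that exchanges nucleotide on HSP70 (ENSCAFG00000006538), ranged from 21.7 CPM over a median of 30.7 to 44.4 CPM in cases, and from 24.5 over 38.6 to 58.0 CPM in controls. The groups overlapped, but 11 of 13 cases lay below the control median and the 2 lowest dogs, case_06 and case_07, were cases. Its log2 fold change was -0.36 (SE 0.12), a case level 0.781 times that of controls, with P = 0.00437 and an adjusted P-value of 0.275 in edgeR. The value was -0.27 (SE 0.22) on the high side of the small RNA split and -0.37 (SE 0.13) on the low side.

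HSPA8, the constitutive HSP70 of the cytosol (ENSCAFG00000011666), ranged from 311 CPM over 424 to 681 CPM in cases and from 332 over 560.0 to 849.9 CPM in controls. Here too 11 of 13 cases lay below the control median, while the highest case exceeded all controls but control_09. The log2 fold change was -0.26 (SE 0.12), with P = 0.0298 and an adjusted P-value of 0.444 in edgeR, and it was -0.26 and -0.20 on the high and low sides. Reads of HSPA8 and of HSP90AA1 may be shared with near-identical copies, so their counts are uncertain to that extent.

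Both genes ran against the platelet markers over the 31 dogs, as part of 26 relations of 13 members with 2 marker scores. HSPH1 had r = -0.488 and rho = -0.412 with the platelet score (permutation P = 0.00542 and 0.0217, adjusted P = 0.0201 and 0.0700). The relation rested on few dogs, since r was -0.336 (permutation P = 0.0746) without case_06 and control_09, 0.131 within cases, -0.569 within controls, and -0.245 and -0.488 on the high and low sides. HSPA8 had r = -0.549 and rho = -0.540 (permutation P = 0.00127 and 0.00201, adjusted P = 0.00654 and 0.00871), with -0.509 without control_09 and case_07, -0.293 within cases, -0.534 within controls, and -0.232 and -0.448 on the high and low sides. Centred within group and side, r was only -0.181 for HSPH1 and -0.208 for HSPA8. With the T cell score, described without a test, r was 0.483 for HSPH1 and 0.502 for HSPA8, and 0.366 and 0.334 when centred in the same way, and the T cell score was 0.21 lower in cases. Its part in the HTG difference was not tested. Adjusted for the platelet score, the HTG differences were -0.22 (P = 0.128) for HSPH1 and -0.08 (P = 0.563) for HSPA8 in edgeR.

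The remaining genes of this class stayed closer to 0. HSPA14, which works with DNAJC2 at the ribosome, had a log2 fold change of -0.13 (adjusted P = 0.614, edgeR). HSPA4, another HSP110, had -0.05, and HSPA1L, an HSP70 known from testis, had 0.24 with an SE of 0.23 at 2 to 59 counts per dog. Cytosolic HSP90AA1, the stress-inducible HSP90, had medians of 307 CPM in cases and 326 CPM in controls and a log2 fold change of -0.21 (SE 0.14, adjusted P = 0.633, edgeR). DNAJA1, a J-domain partner of HSPA8, had -0.22 (SE 0.15), and both changed sign with the platelet score as a covariate (0.06 for HSP90AA1 and 0.10 for DNAJA1).

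**Figure D2:**
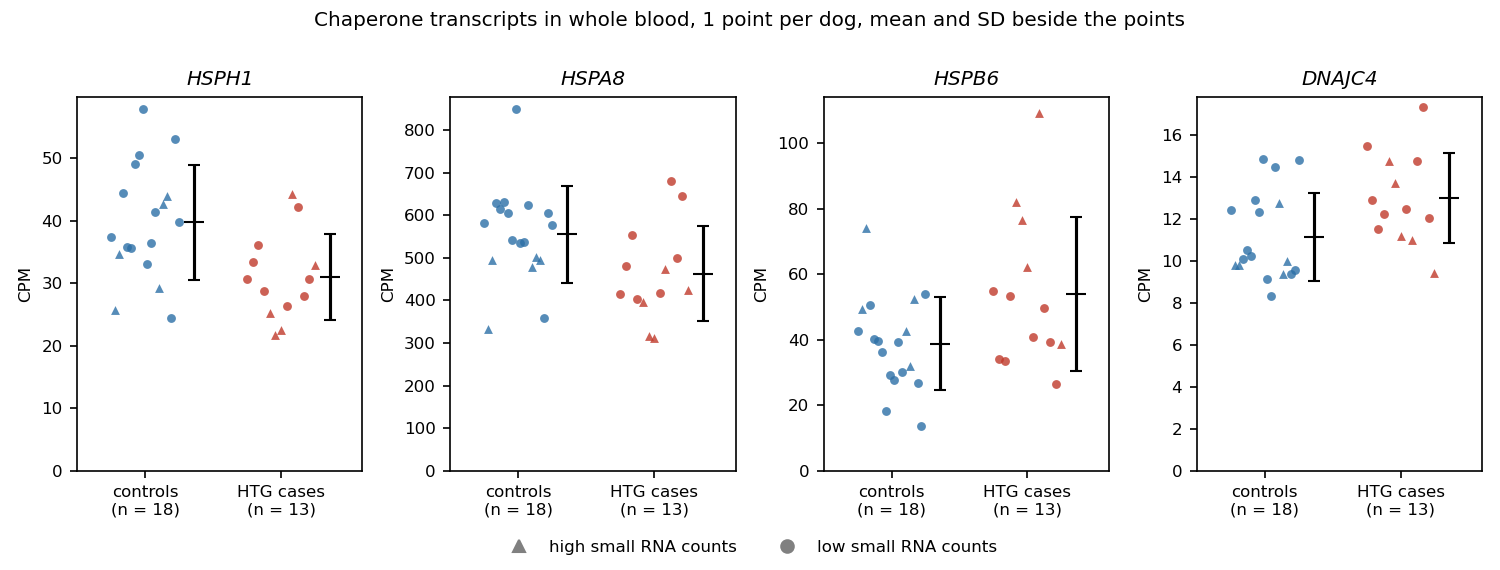
CPM of HSPH1, HSPA8, HSPB6 and DNAJC4 in each dog, with the mean and SD of 18 controls and 13 HTG cases; triangles are dogs with high and circles dogs with low small RNA counts. Cases and controls overlap in all 4 panels, and the highest HSPA8 value (849.9 CPM) belongs to a control and the highest HSPB6 value (109 CPM) to a case.

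The small heat shock gene HSPB6, also called HSP20 and known from smooth muscle and platelets (ENSCAFG00000006801), had the largest positive difference. It ranged from 26.7 CPM over a median of 49.8 to 109 CPM in cases and from 13.7 over 39.5 to 74.0 CPM in controls. The 4 highest values were 3 cases and control_03, all on the high side of the small RNA split, and 8 of 13 cases lay above the control median. The log2 fold change was 0.48 (SE 0.20, P = 0.0213, adjusted P = 0.396 in edgeR), and within sides it was 0.56 (SE 0.26) on the high and 0.27 (SE 0.20) on the low side.

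HSPB6 followed the platelet markers closely from dog to dog. Pearson's r with the platelet score was 0.859 and Spearman's rho 0.847 over 31 dogs (permutation P = 1e-05 each, the smallest that 100000 resamples can give, and 8.67e-05 adjusted over the 26 relations). The value was 0.881 within cases, 0.821 within controls, 0.861 and 0.796 on the high and low sides, and 0.798 without the 2 dogs farthest from the median HSPB6 level. Adjusted for the platelet score, its HTG difference turned to -0.19 (SE 0.14, P = 0.171, edgeR). HSPB6 overlaps PROSER3 in RefSeq. HSPB3, a small heat shock gene known from muscle, ranged only from 1.17 to 9.29 CPM and correlated with the same score less tightly (r = 0.541, rho = 0.560, permutation P = 0.00151 and 0.00115, adjusted P = 0.00654 and 0.00598), at 0.532 without 2 dogs, 0.556 and 0.486 within cases and controls, and 0.229 and 0.482 on the high and low sides. HSPB1, the widely expressed HSP27, had a log2 fold change of -0.17 (adjusted P = 0.563, edgeR).

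DNAJC4, a J-domain gene (ENSCAFG00000014580), was counted at 75 to 467 read pairs per dog. Its level ranged from 9.46 CPM over a median of 12.5 to 17.4 CPM in cases and from 8.32 over 10.2 to 14.9 CPM in controls. All but 1 of the 13 cases lay above the control median, although the ranges overlapped. The log2 fold change was 0.22 (SE 0.09, P = 0.0256, adjusted P = 0.421 in edgeR), with 0.21 and 0.25 on the high and low sides and 0.25 with the platelet score as a covariate. Its r with the neutrophil score, which was 0.57 higher in cases, was 0.579 (0.536 centred within group and side), and the part of neutrophils was not tested. In the RefSeq annotation of another dog assembly DNAJC4 overlaps NUDT22, and the strand setting of the counting is not given in the sources used here, so reads of these 2 genes may not have been separable. The same holds for DNAJA1 with CDC45, DNAJC2 with PMPCB, DNAJC9 with FAM149B1 and DNAJB4 with FUBP1, and it limits every value given for these members. These pairs are the tested members that overlap another tested gene. In that annotation 38 of 63 matched members overlap some other gene, HSPH1 and HSPA8 included.

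In the endoplasmic reticulum, 7 of 10 log2 fold changes were below 0, the median was -0.04, and the smallest adjusted P-value in edgeR was 0.733. HSPA5, the reticulum's HSP70 known as BiP, had medians of 213 CPM in cases and 187 CPM in controls and a log2 fold change of 0.02 (SE 0.12). HSP90B1, its HSP90 known as GRP94, had -0.13 (SE 0.17), and DNAJB11, a J-domain partner of BiP, had -0.03 (SE 0.10). In the mitochondrion, HSPA9, the HSP70 called mortalin, had -0.05 (SE 0.12) and DNAJC15, of the inner membrane, had -0.26 (SE 0.13, adjusted P = 0.543, edgeR). Among the 20 other J-domain genes the median was -0.02. DNAJC17, a nuclear J-domain gene tied to splicing, had -0.16 (SE 0.10).

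Among the genes that regulate these chaperones or work with them, likewise, no gene was called. Of 64 listed partners, 58 were tested and 0 were called in edgeR, with 1 under an unadjusted 0.05 in each direction, beside 5.04% of all genes for higher and 4.76% for lower values. FKBP5, a cochaperone of HSP90 in steroid receptor complexes and a glucocorticoid-responsive gene, ranged from 44.0 CPM over 68.4 to 275 CPM in cases and from 56.9 over 98.4 to 428 CPM in controls. Below the control median lay 12 of 13 cases, and the log2 fold change was -0.83 (SE 0.31, P = 0.0102, adjusted P = 0.333 in edgeR), with -0.80 on the high and -0.94 on the low side. BAG3, a stress-inducible cochaperone of HSP70, had medians of 2.03 and 1.44 CPM in cases and controls and a log2 fold change of 0.70 (SE 0.29, adjusted P = 0.386, edgeR). Reading by list, the 12 tested HSP70 cochaperones had a median log2 fold change of -0.04, the 14 HSP90 cochaperones -0.11 with 3 above 0, the 7 chaperonin subunits -0.08, the 5 prefoldin subunits -0.06 and the 5 other folding enzymes of the reticulum -0.03. The 4 tested heat shock factors had a median of 0.02, among them HSF1 at -0.02 (SE 0.06). The 11 tested genes of the unfolded protein response had a median of -0.02, with ATF4, its transcription factor, at 0.24 (SE 0.12). NUDC, an HSP90 cochaperone, had -0.25, and CCT3, a subunit of the cytosolic chaperonin, had -0.13.

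Males were then compared with females, with group in the model. The 5 smallest P-values among members belonged to HSP90B1, HSPH1, DNAJC16, HSPA5 and DNAJC10, all with higher medians in males, of which HSP90B1, HSPA5 and DNAJC10 act in the endoplasmic reticulum. However, 0 of 50 members were called in edgeR, where 0.122% of all genes were (17 of 13918), and 0 in DESeq2 and limma-voom. Unadjusted, 2 members were under 0.05, beside 4.89% of all genes, and log2 fold changes of males over females were above 0 for 9 of the 10 reticulum genes, with a median of 0.13, beside 56.5% of all genes. On the low side of the small RNA split they were above 0 for 9 of 10, with a median of 0.22, and on the high side for 4 of 10, with a median of -0.02. Many reticulum genes correlate with each other (median r 0.554), so these are not 10 separate observations. Control_09, a male, was highest for 6 of the 10. HSP90B1 ranged from 351 CPM over 569 to 1507 CPM in males and from 303 over 446 to 745 CPM in females. The sexes overlapped broadly and the top value came from control_09 alone. The log2 fold change was 0.38 (SE 0.16, P = 0.0242, adjusted P = 0.959 in edgeR), with 0.53 on the low and 0.05 on the high side of the small RNA split. Without control_09 it was 0.25 (SE 0.13, P = 0.0606) and only 1 member, DNAJC16 (0.23, P = 0.0272), was under an unadjusted 0.05. HSPH1 had 0.24 (SE 0.11), DNAJC16 0.21 (SE 0.10), HSPA5 0.21 (SE 0.11) and DNAJC10, a reticulum disulfide reductase, 0.16 (SE 0.09), all at an adjusted P-value of 0.959. With the platelet score as a covariate 10 members, all with higher values in males, were under an unadjusted 0.05, beside 8.53% of all genes, and still 0 were called.

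**Figure D3:**
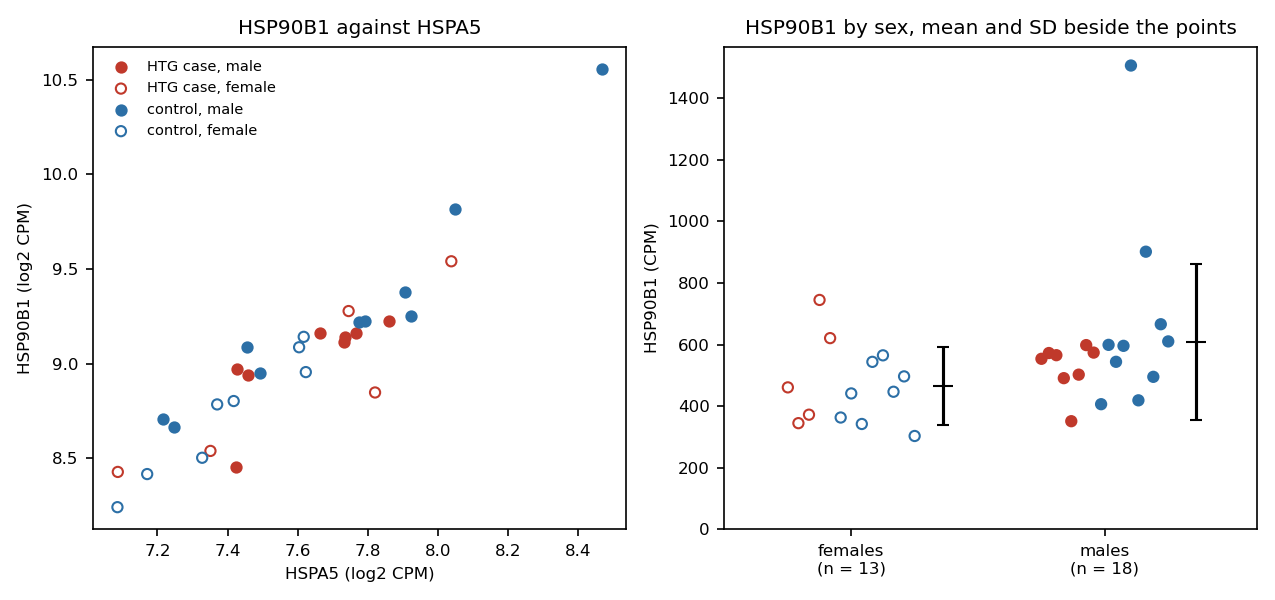
Left, log2 CPM of HSP90B1 against that of HSPA5 in 31 dogs; right, CPM of HSP90B1 in 13 females and 18 males, with mean and SD. Points lie close to 1 line on the left (r = 0.928), and control_09, a male, is highest on both axes and on the right at 1507 CPM.

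Whether the HTG difference itself differed between the sexes was tested as an interaction, and 0 of 50 members were called, as was 0% of all genes, and DESeq2 called 0 as well. Unadjusted, 2 members were under 0.05, beside 3.93% of all genes. DNAJB1, the heat-inducible J-domain protein that starts the HSP70 cycle, had median levels of 93.1 CPM in female cases and 50.1 CPM in female controls, against 51.2 and 46.9 CPM in male cases and controls. Fitted within each sex, its log2 fold change was 1.11 (SE 0.33) in females and -0.34 (SE 0.34) in males, a difference of -1.44 (SE 0.51, P = 0.00862, adjusted P = 1.000 in edgeR). The median reticulocyte score was 1.25 in female cases and -0.18 in female controls, and -0.02 in male cases and -0.84 in male controls. The median score and the median DNAJB1 level were thus both higher in cases of each sex. The fitted DNAJB1 difference in males was negative, and that fit included control_03, with 236 CPM and a score of 2.75. The part of the reticulocyte score was not tested. Without case_01 the DNAJB1 difference was -0.86 (P = 0.0825), without control_03 it was -1.01 (P = 0.0170), and without both it was -0.45 (P = 0.200). DNAJB9, a J-domain protein of the reticulum, was the other member, at -0.50 (SE 0.22, P = 0.0312).

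From dog to dog, the chaperone genes as a set had a lower median spread than all genes tested. The SD of log2 CPM within groups had a median of 0.305 over the 50 members and 0.364 over all genes tested. Members and all genes were not matched on count level, which affects this SD. The steadiest member was DNAJC13, which acts in endosomal sorting, at 0.157. The most variable were DNAJC6, or auxilin, which strips clathrin coats from vesicles together with HSPA8, at 0.976, then HSPB3 at 0.778, DNAJB1 at 0.716, HSPA1L at 0.659 and DNAJC27, a GTPase with a J-domain, at 0.580. The last gene and HSPA1L were counted at only 4 to 110 and 2 to 59 read pairs per dog.

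DNAJC6 and DNAJB1 followed the reticulocyte markers from dog to dog. DNAJC6 ranged from 12.9 CPM over a median of 26.6 to 101 CPM in cases and from 6.58 over 19.5 to 148 CPM in controls, so that the highest dog had 22.4 times the level of the lowest. DNAJB1 ranged from 36.1 over 55.4 to 270.3 CPM in cases and from 34.5 over 48.7 to 236 CPM in controls. The 2 highest dogs for both genes were case_01 and control_03, which also led in the reticulocyte score.

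Over 31 dogs DNAJC6 correlated with the reticulocyte score at r = 0.956 and rho = 0.931, and DNAJB1 at r = 0.920 and rho = 0.935 (permutation P = 1e-05 each, adjusted P = 8.67e-05 over the 26 relations). Without case_01 and control_03 r was 0.927 and 0.887. Within cases and within controls it was 0.964 and 0.951 for DNAJC6 and 0.937 and 0.928 for DNAJB1, and within the high and low sides 0.944 and 0.970 for DNAJC6 and 0.942 and 0.904 for DNAJB1. Neither gene tracked the platelet score (r = 0.259 and 0.192, permutation P = 0.159 and 0.300). The log2 fold changes of cases over controls were 0.34 (SE 0.36) for DNAJC6 and 0.31 (SE 0.28) for DNAJB1, but -0.30 and -0.26 on the high side and 0.69 and 0.60 on the low side of the small RNA split. Adjusted for the reticulocyte score they turned to -0.15 (SE 0.11) and -0.18 (SE 0.11).

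**Figure D4:**
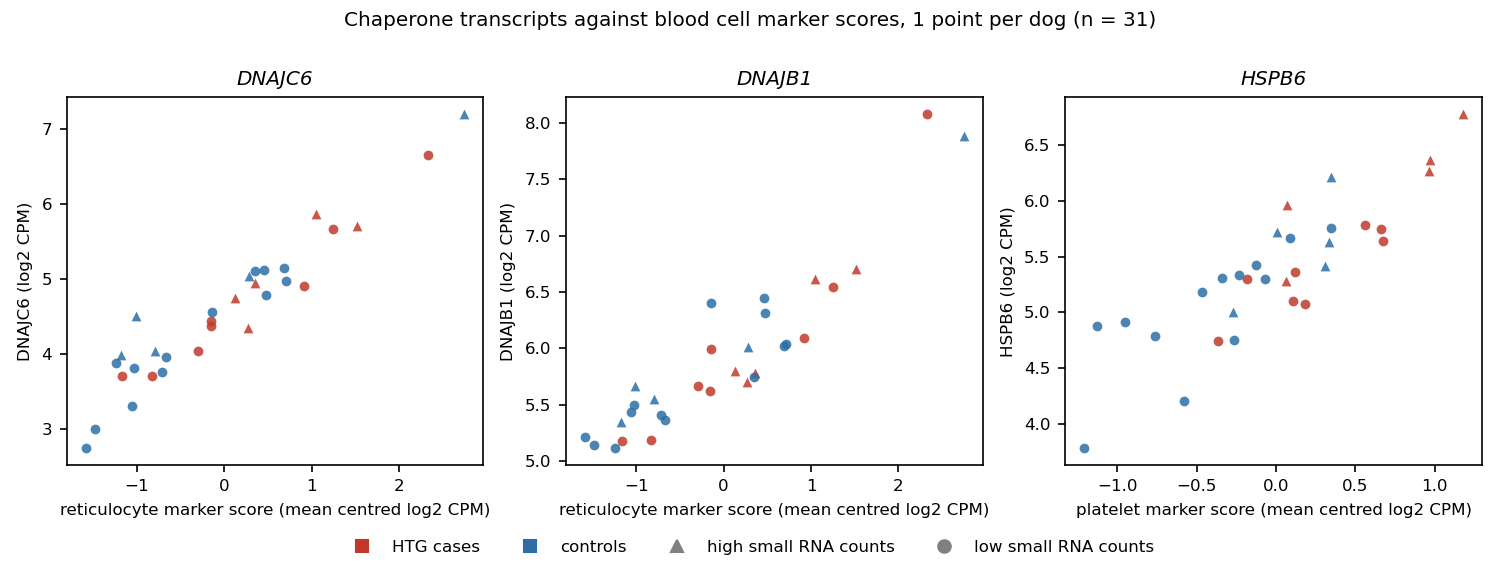
Log2 CPM of DNAJC6 and DNAJB1 against the reticulocyte marker score and of HSPB6 against the platelet marker score, 1 point per dog (n = 31); red points are HTG cases, blue points controls, and triangles dogs with high small RNA counts. Points rise along each score in both groups (r = 0.956, 0.920 and 0.859).

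Other members shared these patterns, described here without a test. Pearson's r with the reticulocyte score was at least 0.7 for 5 of 50 members, beside 5.66% of all genes. These members were DNAJC6, DNAJB1, HSPBAP1 (0.764), the anti-aggregation chaperone DNAJB6 (0.742) and DNAJC5 (0.719), the cysteine string protein of secretory vesicles. It was at most -0.7 for 4 members, beside 1.78% of all genes, namely the reticulum proteins DNAJC1 (-0.791) and DNAJC3 (-0.704), the histone chaperone DNAJC9 (-0.705) and mitochondrial DNAJA3 (-0.701). With the T cell score only DNAJC2, which binds ribosomes, reached 0.7 (0.717), beside 2.97% of all genes, and with the neutrophil, monocyte and B cell scores no member did. Centred within group and side of the split, DNAJC2 was at 0.673 and DNAJC16 at 0.710 with the T cell score, DNAJC5 was at 0.725 with the neutrophil score, and DNAJC3 (-0.683) and DNAJA3 (-0.677) were no longer at or under -0.7 with the reticulocyte score. These points share library, depth and the share of each cell type in blood.

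Correlation over the dogs, described by class without a test, was highest in its median among the genes of the endoplasmic reticulum, though not for each of them. Among the 10 reticulum genes the median Pearson r of 45 pairs was 0.554, against 0.121 over all 1225 pairs of members, and the mean r was 0.111 among members and 0.00213 among all genes tested. HSPA5 correlated with HSP90B1 at r = 0.928 and rho = 0.924 and with DNAJB11 at r = 0.925 and rho = 0.943 (permutation P = 1e-05 each, 1.75e-05 adjusted over 7 pairs). Without control_09 and control_16 these were 0.894 and 0.902, within cases 0.859 and 0.918, within controls 0.963 and 0.946, on the high side 0.929 and 0.862, and on the low side 0.938 and 0.943. DNAJB12, a membrane protein of the reticulum, had r from -0.314 with DNAJC1 to 0.350 with DNAJB9 over the other 9 genes, and DNAJB14 had 0.174 with HSP90B1 and 0.281 with HSPA5. The other classes had lower medians, at 0.349 for the HSP70 and HSP110 genes, 0.123 for mitochondrial and 0.0325 for other J-domain genes.

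Partners in the cytosol and the mitochondrion were also correlated. HSPA8 and its cochaperone DNAJA1 had r = 0.794 and rho = 0.791 (permutation P = 1e-05 each, adjusted P = 1.75e-05), with 0.733 without control_09 and case_07, 0.707 and 0.848 within cases and controls, and 0.650 and 0.709 on the high and low sides. HSPA9 and DNAJA3, the mitochondrial HSP70 and its J-domain partner, had r = 0.752 and rho = 0.750 (permutation P = 1e-05 each, adjusted P = 1.75e-05), with 0.658 without case_06 and case_07, 0.830 and 0.754 within cases and controls, and 0.839 and 0.497 by side. So both pairs kept a positive r in each group and on each side.

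HSPH1 was paired with 3 other genes. With HSP90AA1, which like HSPH1 is heat-inducible, it had r = 0.639 and rho = 0.561 (permutation P = 6e-05 and 0.00141, adjusted P = 8.40e-05 and 0.00197), and r was 0.489 without case_06 and control_09, 0.674 and 0.557 within cases and controls, and 0.828 and 0.560 by side. With HSPA5, of another compartment, it had r = 0.560 and rho = 0.489 (permutation P = 0.000820 and 0.00574, adjusted P = 0.000957 and 0.00670), and r was 0.461 without the same 2 dogs, 0.472 (permutation P = 0.103) and 0.772 within cases and controls, and 0.508 (permutation P = 0.133) and 0.515 on the high and low sides. With DNAJB1, also heat-inducible, the sign was negative, with r = -0.300 (permutation P = 0.102, adjusted P = 0.102) and rho = -0.380 (permutation P = 0.0361, adjusted P = 0.0361), and r was -0.335 (permutation P = 0.0761) without those dogs. Within cases and controls r was -0.373 and -0.152 (permutation P = 0.209 and 0.549). On the high and low sides it was -0.306 and -0.234 (permutation P = 0.413 and 0.312). Pairs with HSPD1, HSPE1 and HSP90AB1 were not analysed here.

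**Figure D5:**
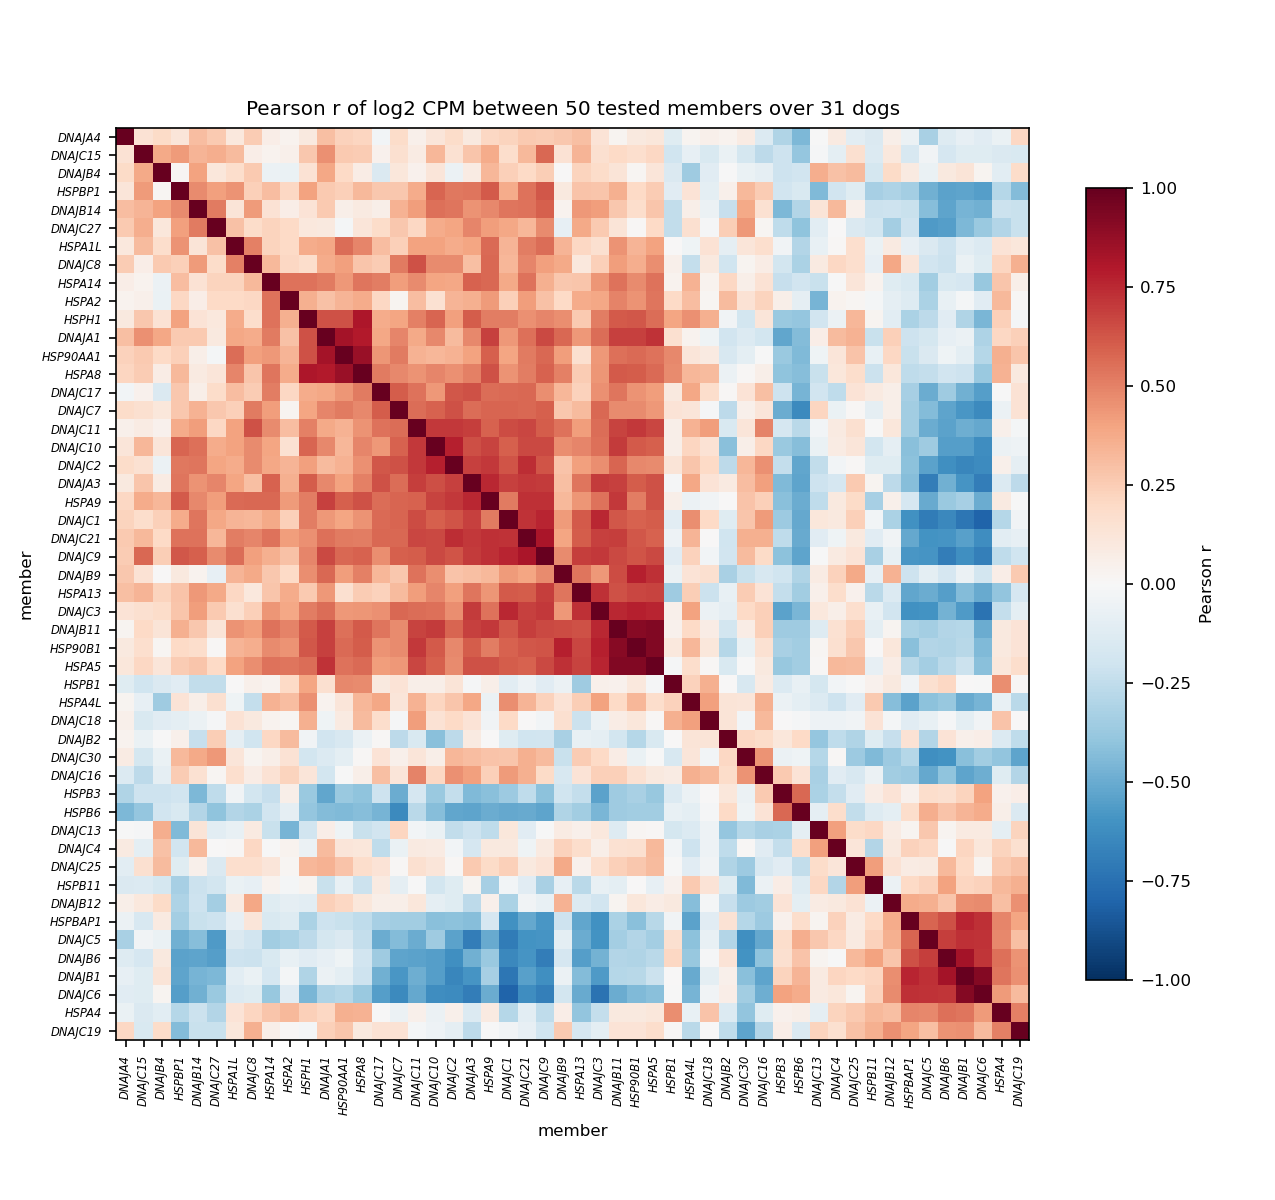
Pearson r of log2 CPM over 31 dogs for each pair of the 50 tested members, which are ordered by average-linkage clustering on 1 minus r; red is positive and blue negative. A block holding HSPA5, HSP90B1 and DNAJB11 and a small block holding DNAJC6, DNAJB1, DNAJB6, DNAJC5 and HSPBAP1 stand out, with negative r between the genes of one and of the other.

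The 2 sides of the small RNA split were compared for each member, as a description. Median CPM was lower on the high side for 42 of 50 members, beside 52.9% of all genes, and the median log2 ratio of high to low side was -0.16 for members and -0.02 for all genes. Many members correlate with each other, so these are not 50 separate observations. DNAJA1 had medians of 26.9 CPM on the high and 40.3 CPM on the low side, a log2 ratio of -0.58. HSPA9 had 62.5 and 91.4 CPM, with -0.55, and HSP90AA1 258 and 342 CPM, with -0.40. HSPB3 (0.81), HSPB6 (0.55) and DNAJC6 (0.48) had the largest ratios the other way. Sides overlapped for every member, while 0.948% of all genes had sides that did not. The labels do not name the pilot dogs, so library preparation and other differences between these dogs cannot be told apart.

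Single dogs carried the extremes. Control_09 had the highest CPM of all 31 dogs for 14 of 50 members, among them 6 of 10 reticulum genes and the cytosolic HSPA8, HSPH1, HSP90AA1 and DNAJA1. Its HSP90B1 level of 1507 CPM was followed by 902 CPM in control_14. Control_03 was highest for 6 members and lowest for 12, and case_06 and case_07 were lowest for 5 each. Control_03 also had the fewest counts (14524659) and the lowest TMM normalization factor (0.527), followed by case_01 (0.752). The CPM of these dogs depend on those factors. Without control_09 the HTG difference was -0.32 (P = 0.00850) for HSPH1 and -0.22 (P = 0.0544) for HSPA8, and without control_03 8 members were under an unadjusted 0.05, beside 16.4% of all genes, with 0 called in edgeR.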

How the data were processed

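Whole-blood RNA of 31 dogs was sequenced as 1 library per dog. The authors trimmed reads with Trimmomatic, aligned them with HISAT2 to the Dog10K_Boxer_Tasha assembly and counted features when both mates of a pair mapped. They deposited these counts, without normalization. The counting program, its strand setting and the annotation are not given in the sources used here. The labels name polyA RNA and an RNeasy kit, while the methods name Tempus tubes and a library kit that removes ribosomal RNA. Totals ranged from 14524659 to 41533599 counts per dog.

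In R 4.3.3, edgeR 4.0.16 filtered genes with filterByExpr by group, normalized with TMM and fitted glmQLFit and glmQLFTest over 13918 genes. Adjustment was by Benjamini-Hochberg over all genes tested, and genes at or under 0.05 were called. SEs were the log2 fold change over the square root of F. CPM were scaled by TMM, and log2 CPM had a prior count of 2. Marker scores were mean centred log2 CPM. Correlations had two-sided permutation tests of 100000 resamples each (scipy 1.17.1). The test was checked on simulated counts. Of log2 fold changes of 0.5 put in, it recovered 43% for HTG, 49% for sex and 1% for the interaction. Of changes of 1 it recovered 81%, 81% and 43%, so 0 calls do not show that levels were equal. The authors' batch covariate was left out because its dogs are not named in the labels, and age and diet were not used.

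Members, roles, partner lists, markers and tests were chosen with earlier results of these data known. Named genes were a fixed list of chaperones, the 8 members with the smallest P-values for HTG and 5 for sex, the 5 with the largest SD and 5 partners with the smallest P-values; other names in the text were chosen after their values were seen. Alternatives were DESeq2 1.42.0, limma-voom 3.58.1, RLE normalization, no filter, at least 10 counts in every dog, the split, sex, the platelet or reticulocyte score or the dog number as a covariate, removal of the 20 most abundant genes, omission of case_01 with control_03, and each side of the split alone. Leaving out single dogs was added after seeing the data. RefSeq matched 63 of 65 members by symbol, on an assembly other than the study's, and was used for which genes overlap; no coordinates were taken from it. Nothing in the labels says that any dog was sampled more than once, and each dog counted as 1 replicate.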

Additional observations from a re-analysis of the deposited data

Results flagged for a closer look

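DNAJB1 and DNAJC6 were the members given by group and sex. In 4 of 8 such sets a dog stood apart by Dixon's ratio, taken on CPM, at its 95% critical value. Chance passes it in about 5% of independent sets, a rate that cannot be applied here, because both genes were chosen for their spread over dogs and correlated with each other at r = 0.915. The ratio was not computed on log2 CPM, the scale used for spread and correlations, so the 4 sets hold for CPM only. DNAJB1 was 270.3 CPM in case_01, beside 104 CPM in the next of 5 female cases. In control_03 DNAJB1 was 236 CPM, beside 84.2 CPM in the next of 10 male controls. DNAJC6 was 148 CPM in control_03, beside 32.9 CPM in the next male control, and 58.3 CPM in case_06, beside 30.0 CPM in the next of 8 male cases. The reticulocyte score was highest of its set in the same dogs, at 2.33 in case_01, 2.75 in control_03 and 1.05 in case_06.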

How the results depend on the processing

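No alternative called a member for HTG, for sex or for the interaction, and leaving out each dog in turn gave 0 to 0 called members for HTG. Calls over all genes for HTG went from 5 to 84 in DESeq2, 28 without case_01 and control_03, 125 without control_03, 23 without case_12, 1 with at least 10 counts in every dog, and 0 in limma-voom, on either side of the split and with the platelet or reticulocyte score. Leaving out any other dog gave 2 to 11. Members under an unadjusted 0.05 for HTG numbered 3 to 8 with 1 dog left out (7.9% to 16.4% of all genes) and 0 on the high side of the small RNA split (3.94%). For sex they went from 2 to 4 in limma-voom (5.77% of all genes), 6 with the split as a covariate (6.9%), 10 with the platelet score (8.53%), 6 without case_01 and control_03 (9.16%) and 1 without control_09 (5.5%). For the interaction they went from 2 to 4 without a filter (5.98%) and 5 with the split as a covariate (3.92%).

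Dog numbers only name the dogs: deviations of same-numbered dogs had r over 0.1 in 3 of 13 pairs (range -0.44 to 0.26), and 1 case correlated best with the control of its number. With the number as a replicate block 0 members and 0 genes were called, 3 members were under an unadjusted 0.05 (6.16% of all genes), and DNAJC27 turned to 0.15.

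Among the genes named by rule, log2 fold changes for HTG turned sign as follows, none of them called in either fit, and other members were not followed. With the platelet score they were HSPA9 0.12, HSP90AA1 0.064, HSP90B1 0.20, DNAJA1 0.10, DNAJB11 0.12, DNAJC3 0.033, DNAJC2 0.070, HSPB6 -0.19, DNAJC10 0.039, DNAJC6 -0.070, HSPB3 -0.25 and DNAJC27 0.11. With the reticulocyte score they were HSPA9 0.039, HSP90B1 0.00035, DNAJB1 -0.18, DNAJB11 0.069, DNAJC3 0.016, DNAJC2 0.049, DNAJC10 0.041, DNAJC6 -0.15 and DNAJC27 0.13. On the high side alone they were HSPA5 -0.070, DNAJB1 -0.26, DNAJC6 -0.30, HSPB3 -0.11, HSPA1L -0.022, DNAJC27 0.16 and ATF4 -0.00049. On the low side alone they were HSPA4 0.018, HSPA9 0.10, DNAJB6 0.013, DNAJB11 0.044 and DNAJC2 0.042. DNAJC27 was 0.028 in limma-voom and 0.031 with the split as a covariate, and HSPA5 was -0.022 without case_01 and control_03. Why they turned was not tested. The pair HSPH1 and DNAJB1 reached -0.38 without case_01 and control_03 and -0.38 as rho, both under 0.05. The other 6 pairs kept their side of the threshold under the other prior count, both centrings, rho and without case_01 and control_03. The median SD of members stayed between 0.290 and 0.307.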
